A study of Mus musculus with 5 samples.

Results

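The 10 genes that form the D cyclin module were followed across the cell classes of the newborn mouse hippocampus: the D cyclins Ccnd1, Ccnd2 and Ccnd3, their kinases Cdk4 and Cdk6, the inhibitors Cdkn1a, Cdkn1b, Cdkn1c and Cdkn2c, and Rb1. They were listed by symbol, and each of the 10 was found once among the 32285 genes of the count matrices. D cyclins are made in response to growth signals in G1 and bind Cdk4 or Cdk6. The active pairs phosphorylate the retinoblastoma protein Rb1, which then releases E2F factors that switch on genes for DNA replication. Cdkn2c (p18) blocks Cdk4 and Cdk6 directly, whereas Cdkn1a (p21), Cdkn1b (p27) and Cdkn1c (p57) bind cyclin-kinase pairs, and in the newborn dentate gyrus these opposing proteins act while granule neurons are still being born.

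The study compared hippocampi of Trem2 +/+ and Trem2 -/- mice taken on postnatal day 1. Trem2 is a lipid-sensing receptor of microglia. The 3 wild-type (WT) and 2 knockout (KO) libraries each pooled 2 pups and were made with the 3' droplet chemistry of 10x Genomics from papain-dissociated cells. The strain, the kind of null allele and the litters are not given in the sources used here, and no further allele or treatment is named for either genotype. By their descriptions the libraries numbered 2 came from 2 male pups and the others from 1 male and 1 female pup, although the sex label names both sexes throughout.

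Of 40345 barcodes, 28556 cells were kept, with a median of 7658 to 9145 UMIs (counted mRNA molecules) per cell in the 5 libraries, and 0.832% to 1.13% of a library's barcodes also occurred in another library. The cells were placed in 19 classes from marker genes, without use of the 10 genes themselves, and 10.8% of the kept cells stayed outside them. Between 6 and 12 markers of its own list reached 10 CPM (UMI counts scaled by the total of the summed cells) in each named class. Trem2, the check of the labels, was at 1471, 1552 and 1325 CPM in WT microglia-like cells and at 59.2 and 92.9 CPM in the KO libraries, lower in KO by edgeR (log2 difference -4.36 with an SE of 0.314, adjusted p = 3.61e-06). Levels are CPM of the summed cells of a class. Because UMIs count 3' ends, transcript length does not enter, but capture can still differ between genes. Some members followed single libraries across classes: Cdkn1b was highest in WT replicate 3 in 17 of 19 classes, Cdk4 was highest in KO replicate 2 in 13 and lowest in KO replicate 3 in 12, and Rb1 was lowest in WT replicate 2 in 12. The labels do not say whether the libraries came from separate litters or preparations, so p-values measure only the spread between these libraries, which may be technical.

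**Figure D1:**
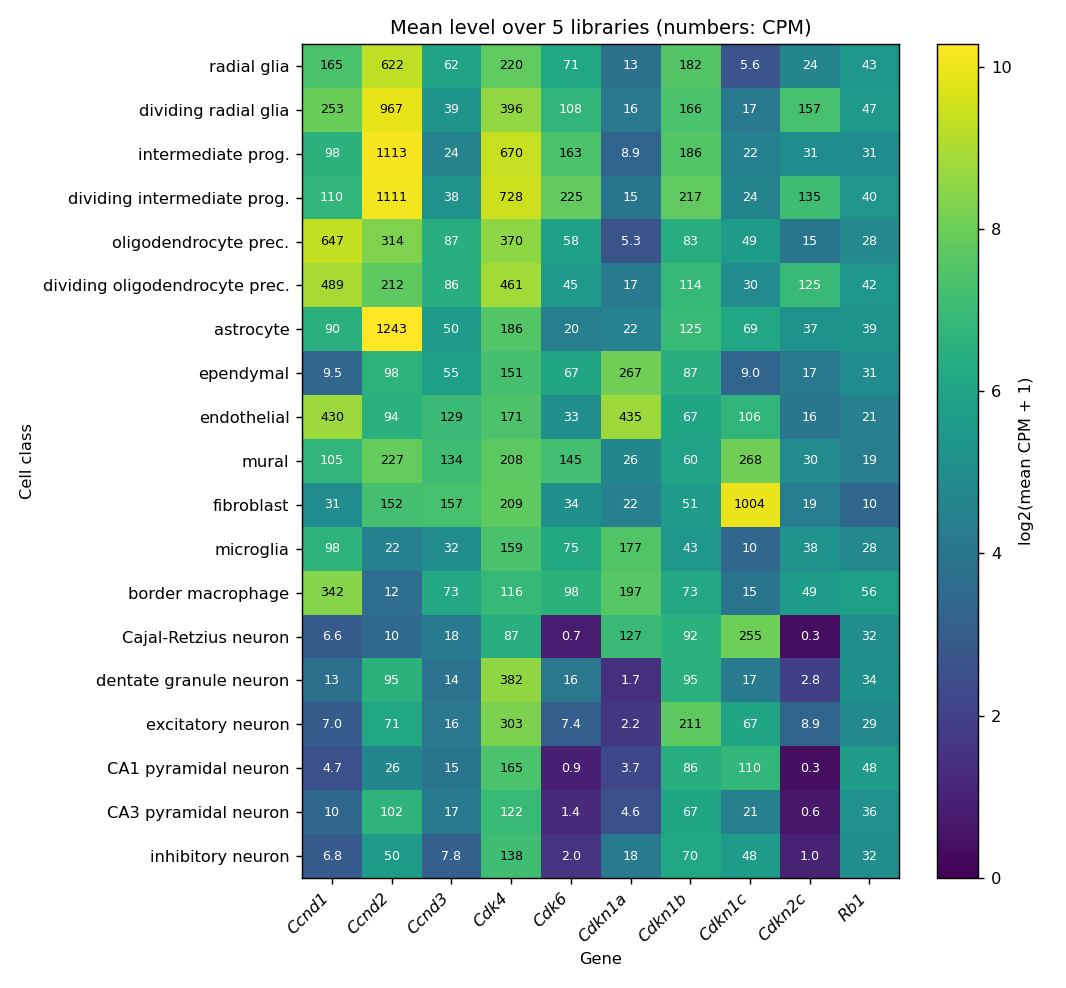
Mean level of the 10 genes (columns) in 19 cell classes (rows) over 5 libraries; numbers are CPM and the colour is log2(mean CPM + 1). Ccnd2 leads in astrocytes, intermediate progenitors and radial glia, Ccnd1 in oligodendrocyte precursors, Cdkn1c in fibroblasts (1004 CPM) and Cdkn1a in endothelial cells (435 CPM).

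The D cyclins divided the dividing and glial classes between them. Ccnd2 (chr6:127125162-127152193, minus strand, mm10), the cyclin best known from neural progenitors, was highest in astrocyte-like cells. There it stood at 1429, 1415 and 1053 CPM in the WT libraries and at 1378 and 941 CPM in the KO libraries, so the genotypes overlapped. Intermediate progenitor-like cells (1113 ± 124 CPM, SD, n = 5) and dividing intermediate progenitor-like cells (1111 ± 125) followed, and each range overlapped that of its neighbour in the order. Radial glia-like cells had 622 ± 75.0 CPM, below the range of dividing radial glia-like cells (967 ± 79.4). Oligodendrocyte precursor-like cells (314 ± 36.6 CPM) lay below both. Among neurons Ccnd2 ranged from 10.5 CPM in Cajal-Retzius-like cells, the early-born neurons of the marginal zone, to 102 CPM in CA3 pyramidal-like cells. Astrocyte-like cells held 23.9% of the Ccnd2 UMIs of the 19 classes.

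Ccnd1 (chr7:144929931-144939925, minus strand) was highest in oligodendrocyte precursor-like cells, at 649, 564 and 783 CPM in the WT libraries and at 586 and 653 CPM in the KO libraries. The KO values fell inside the WT range. Dividing oligodendrocyte precursor-like cells had 489 ± 88.5 CPM (SD, n = 5), endothelial-like cells 430 ± 145 and border macrophage-like cells 342 ± 103. These neighbours overlapped in range. A gap in range came between dividing radial glia-like cells (253 ± 45.3 CPM) and radial glia-like cells (165 ± 13.7 CPM). In neurons Ccnd1 was low, from 4.67 CPM in CA1 pyramidal-like to 12.9 CPM in dentate granule-like cells. Oligodendrocyte precursor-like cells made up 3.18% of the cells in the 19 classes and held 21.2% of their Ccnd1 UMIs.

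Ccnd3 (chr17:47505051-47599691, plus strand), the D cyclin best known from blood cells and muscle, was highest in cells of the vessels and meninges. In fibroblast-like cells it was at 163, 178 and 133 CPM in the WT libraries and at 168 and 144 CPM in the KO libraries. Mural-like (91.7 to 177 CPM) and endothelial-like cells (129 ± 26.0) overlapped with fibroblast-like cells in range, and oligodendrocyte precursor-like cells (86.9 ± 8.93) lay below the endothelial range. The lowest level was 7.77 CPM, in inhibitory neuron-like cells.

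**Figure D2:**
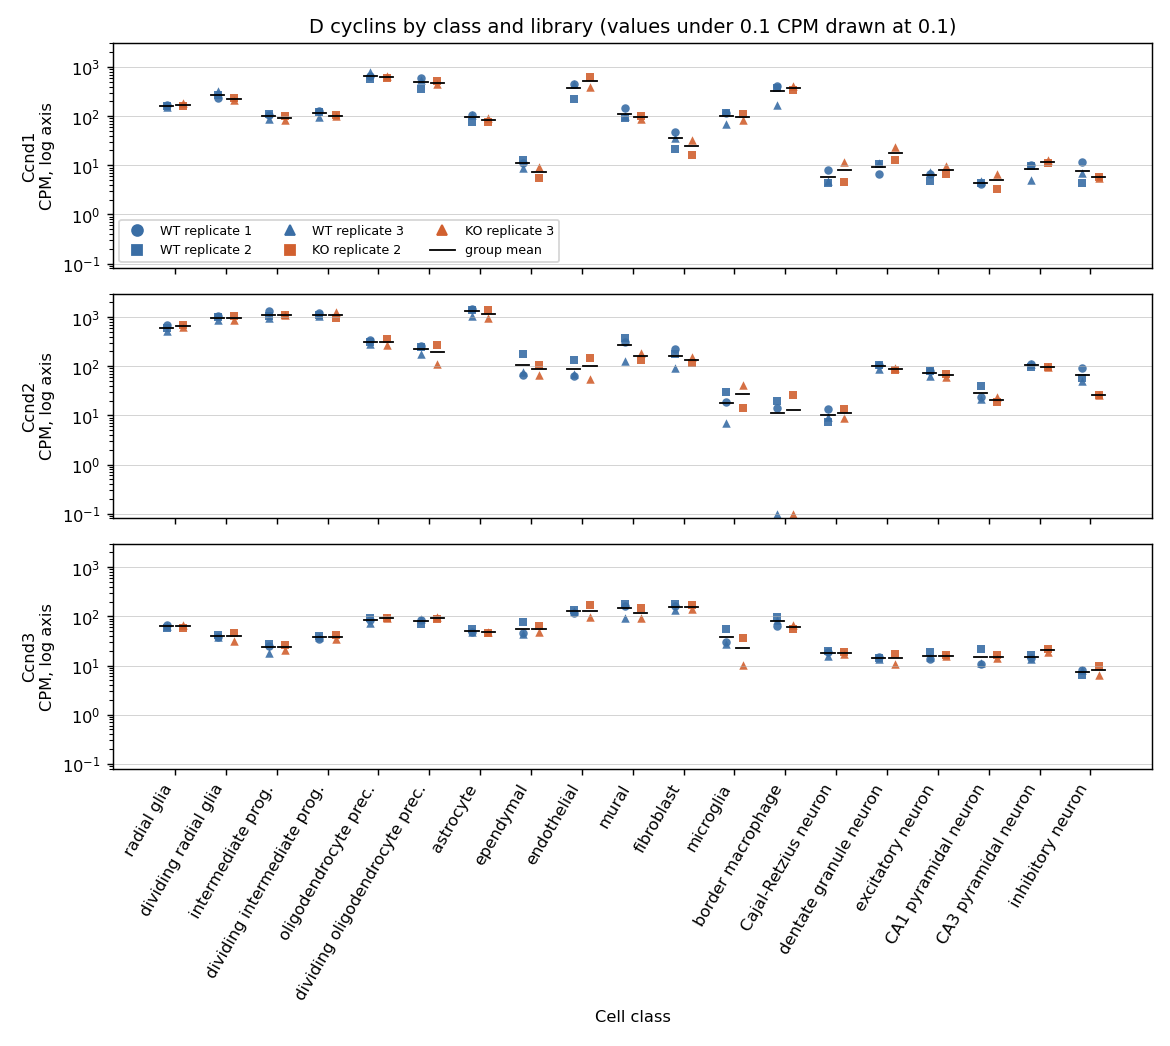
CPM of Ccnd1, Ccnd2 and Ccnd3 (log axis) in 19 cell classes, 1 point per library, WT blue and KO orange, with bars at the group means. Ccnd1 exceeds Ccnd2 in oligodendrocyte precursors (647 against 314 CPM) and lies far below it in astrocytes (90.3 against 1243 CPM).

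Within the family, the balance differed more between classes than between libraries. Ccnd1 was 61.6% ± 4.89 (SD, n = 5) of D cyclin UMIs in oligodendrocyte precursor-like cells and 62.1% ± 5.91 in their dividing counterpart. It was 65.1% ± 11.3 in endothelial-like, 65.0% ± 5.10 in microglia-like and 78.8% in border macrophage-like cells. In radial glia-like cells its share was 19.5% ± 1.70, in intermediate progenitor-like cells 7.93% ± 0.857 and in astrocyte-like cells 6.73% ± 1.77. Ccnd2 held 90.2% in intermediate progenitor-like, 89.6% in astrocyte-like and 30.0% in oligodendrocyte precursor-like cells. Ccnd3 had a higher mean share than Ccnd2 in endothelial-like (20.2% against 14.7%), microglia-like (20.6% against 14.4%) and border macrophage-like cells (18.6% against 2.58%). In endothelial-like cells of WT replicate 2 both had 27.4%. In microglia-like cells of KO replicate 3 the order was reversed (7.69% against 30.8%), from 13 D cyclin UMIs. WT replicate 3 had 15 such UMIs there. Ccnd3 had the largest share in Cajal-Retzius-like cells (52.0%) and shared the lead with Ccnd2 in fibroblast-like cells (47.0% against 43.8%).

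Both kinases were highest in intermediate progenitors, but they differed outside them. Cdk4 (chr10:127063534-127067920, plus strand) was at 717, 718 and 734 CPM in the WT and at 781 and 688 CPM in the KO libraries of dividing intermediate progenitor-like cells. Intermediate progenitor-like cells outside the dividing class had 670 ± 47.4 CPM and overlapped with them. Among neurons, dentate granule-like (382 ± 39.6 CPM) and excitatory neuron-like cells (303 ± 23.2) lay above the 220 ± 32.9 CPM of radial glia-like cells. The means of CA1 pyramidal-like (165 CPM), inhibitory neuron-like (138) and CA3 pyramidal-like cells (122) lay below it. The lowest level was 86.7 ± 8.44 CPM, in Cajal-Retzius-like cells.

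Cdk4 is a known target of MYC, which binds the E-box CACGTG, and its promoter is shown because it carries this motif repeatedly. In the RefSeq window of 250 bases before and 50 after the start (GRCm38.p6, chr10:127063285-127063584, plus strand), capitals mark each CACGTG, which reads the same on both strands:
Cdk4: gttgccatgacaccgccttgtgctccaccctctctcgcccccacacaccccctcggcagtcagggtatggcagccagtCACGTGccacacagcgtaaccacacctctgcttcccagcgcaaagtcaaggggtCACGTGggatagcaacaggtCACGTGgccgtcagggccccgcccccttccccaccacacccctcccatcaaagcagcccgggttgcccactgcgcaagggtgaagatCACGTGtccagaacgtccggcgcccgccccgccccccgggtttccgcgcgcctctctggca
The 4 matches begin at -172, -118, -98 and -11 from the start. Of 32851 promoters of this length, 2349 (7.15%) held CACGTG at least once and 8 (0.0244%) held it at least 4 times. Of the 10 genes, 6 had entries, with 9 promoters in all, and CACGTG was in 3 of these 9, those of Cdk4, Cdk6 and Cdkn2c. The E2F motifs TTTCCCGC and TTTGGCGC were in none of the 9 on either strand. They were in 1.56% of all promoters, so their absence from 9 is uninformative. Ccnd1, Ccnd2, Cdkn1c and Rb1 had no entry. A match is a description of the letters and not a measured binding site.

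Cdk6 (chr5:3341485-3531008, plus strand) was at 258, 196 and 210 CPM in the WT and at 193 and 268 CPM in the KO libraries of dividing intermediate progenitor-like cells. These values lay above the range of intermediate progenitor-like cells outside the dividing class (137 to 183 CPM). Mural-like cells (145 ± 24.7 CPM) came next. Astrocyte-like cells, with the highest Ccnd2, had 19.8 ± 3.62 CPM of Cdk6. Cajal-Retzius-like cells held 1 to 5 Cdk6 UMIs per library. Rb1 (chr14:73183673-73325822, minus strand), the substrate of both kinases, was low in every class. Its means ran from 10.1 CPM in fibroblast-like to 55.8 CPM in border macrophage-like cells. In the latter the libraries had 26.4, 14.4 and 83.0 CPM (WT) and 38.4 and 117 CPM (KO), and every range overlapped that of its neighbour in the order. The model gene Gm17233 overlaps Rb1 on the same strand and is in the matrices too, so reads in the shared stretch may be split.

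The inhibitors occupied different classes. Cdkn1a (chr17:29090976-29100727, plus strand), the classic p53 target p21, was highest in endothelial-like cells, at 453, 271 and 518 CPM in the WT and at 630 and 303 CPM in the KO libraries. Ependymal-like cells had 267 ± 39.4 CPM, border macrophage-like cells 197 ± 155, microglia-like cells 177 ± 96.7 and Cajal-Retzius-like cells 127 ± 14.5. By genotype, the WT means were 132 CPM in border macrophage-like and 239 CPM in microglia-like cells and the KO means 295 and 83.5 CPM, the former with 466 CPM from 28 UMIs in KO replicate 3. The next class, mural-like cells at 25.5 ± 13.9 CPM, lay below the whole Cajal-Retzius range. In dentate granule-like cells Cdkn1a was at 1.71 ± 0.938 CPM. Ependymal-like cells were 1.63% of the cells in the 19 classes and held 31.4% of the Cdkn1a UMIs, and Cajal-Retzius-like cells were 4.58% and held 19.6%. Both ependymal clusters were high, with 246 ± 57.6 CPM in cluster 32 and 329 ± 64.8 CPM in cluster 43, which is led by Deup1, a gene of centriole multiplication.

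The upstream Cdkn1a promoter (GRCm38.p6, chr17:29090729-29091028, plus strand) is shown because it was the only one of the 9 with the p53 half-site motif, marked in capitals:
Cdkn1a: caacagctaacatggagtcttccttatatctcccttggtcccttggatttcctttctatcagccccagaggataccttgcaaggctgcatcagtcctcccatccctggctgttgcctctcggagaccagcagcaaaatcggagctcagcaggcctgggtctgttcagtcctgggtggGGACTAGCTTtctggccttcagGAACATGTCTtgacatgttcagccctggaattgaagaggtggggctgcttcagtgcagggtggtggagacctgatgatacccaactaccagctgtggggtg
The 2 half-sites, searched on both strands, begin at -73 and -51. A half-site was in 8.36% of all promoters.

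Cdkn1b (chr6:134920401-134925513, plus strand), the p27 protein that holds newborn neurons out of the cycle, was the most even of the inhibitors. It was highest in dividing intermediate progenitor-like cells, at 212, 184 and 287 CPM in the WT and at 187 and 214 CPM in the KO libraries. Excitatory neuron-like cells of no named field (211 ± 27.3 CPM), intermediate progenitor-like (186 ± 35.3) and radial glia-like cells (182 ± 30.2) followed. All neighbouring ranges overlapped down to the lowest class, microglia-like cells at 29.0 to 69.0 CPM.

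Cdkn1c (chr7:143458339-143461050, minus strand), an imprinted gene expressed from the maternal copy, was highest in fibroblast-like cells. Its values there were 1554, 763 and 1059 CPM in the WT and 838 and 808 CPM in the KO libraries, above the range of every other class. Mural-like (268 ± 37.1 CPM) and Cajal-Retzius-like cells (236 to 274 CPM) followed and overlapped. CA1 pyramidal-like cells had 110 ± 10.5 CPM against 21.3 ± 2.95 CPM in CA3 pyramidal-like cells, with separate ranges. Radial glia-like cells were lowest at 5.60 ± 2.45 CPM. Among the UMIs of Cdkn1a, Cdkn1b and Cdkn1c, Cdkn1c therefore took 92.8% ± 2.75 (SD, n = 5) in fibroblast-like, 55.3% ± 4.24 in CA1 pyramidal-like and 53.8% ± 1.82 in Cajal-Retzius-like cells, but 2.85% ± 1.35 in radial glia-like cells, where Cdkn1b took 90.9%. Cdkn1a took 73.6% in microglia-like, 73.5% in ependymal-like and 70.0% in endothelial-like cells.

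Cdkn2c (chr4:109660876-109667189, minus strand), the Ink4 protein p18, marked dividing cells of each lineage. It was highest in dividing radial glia-like cells, at 149, 182 and 124 CPM in the WT and at 154 and 176 CPM in the KO libraries. Dividing intermediate progenitor-like (135 ± 22.8 CPM) and dividing oligodendrocyte precursor-like cells (104 to 147 CPM) overlapped with them. The next class, border macrophage-like cells at 49.0 ± 20.3 CPM, lay below these ranges. In Cajal-Retzius-like and CA1 pyramidal-like cells a library held at most 5 Cdkn2c UMIs.

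**Figure D3:**
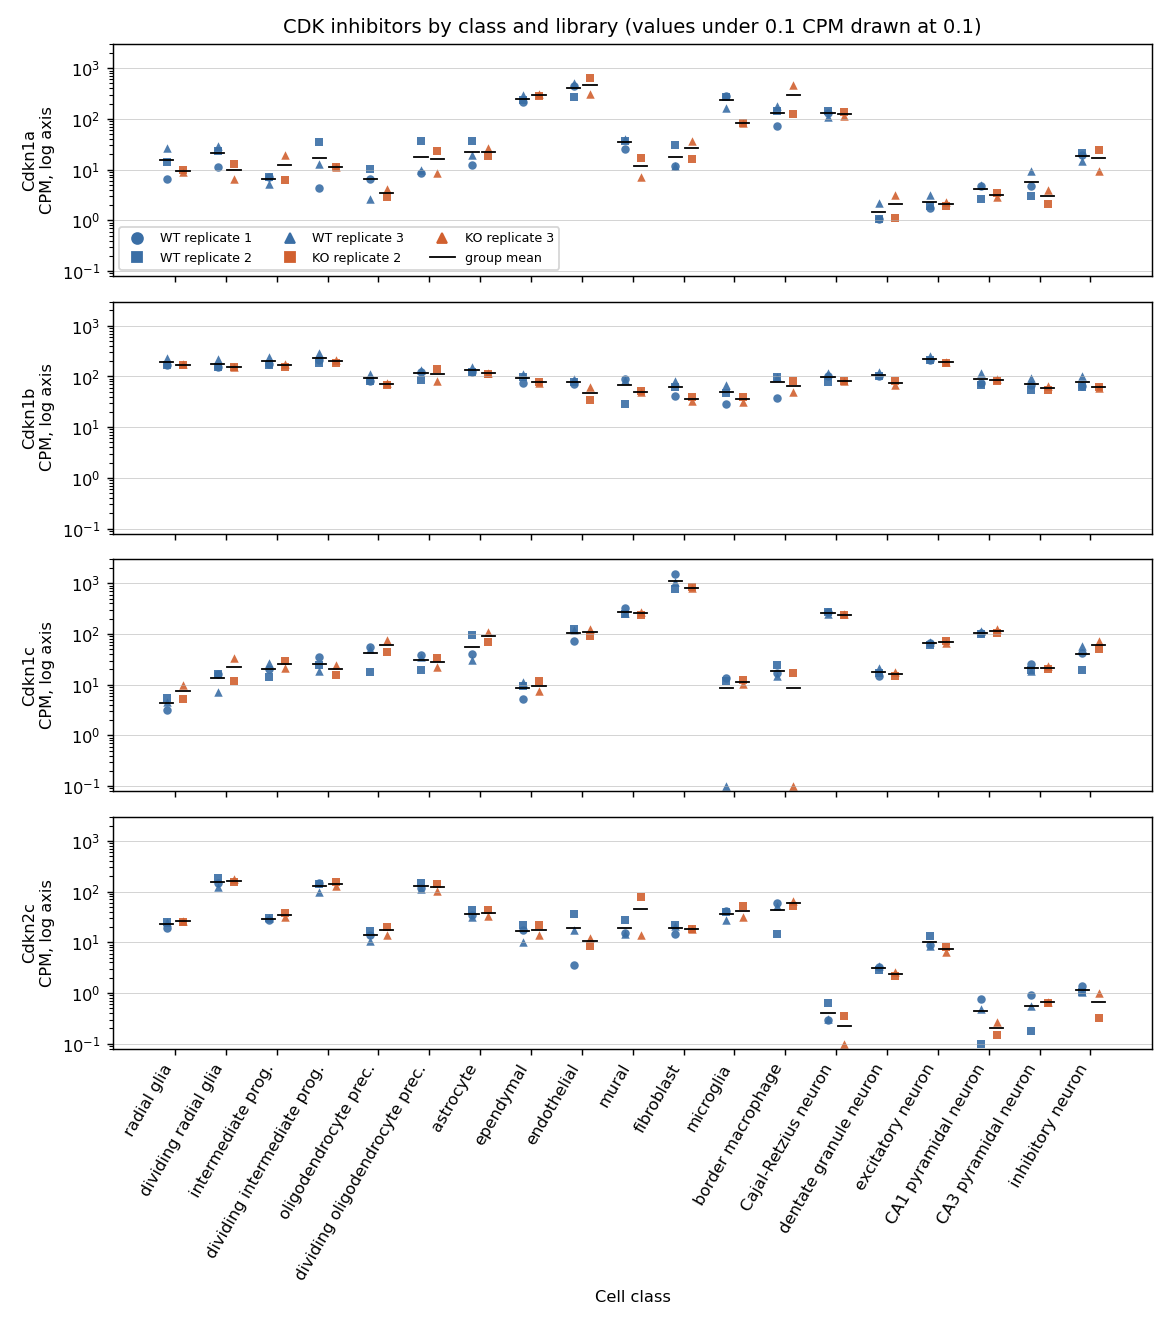
CPM of Cdkn1a, Cdkn1b, Cdkn1c and Cdkn2c (log axis) in 19 cell classes, 1 point per library, WT blue and KO orange, with bars at the group means. Cdkn2c is high in the 3 dividing classes (125 to 157 CPM), Cdkn1c peaks in fibroblasts and Cdkn1a ranges from 435 CPM in endothelial cells down to 1.71 CPM in dentate granule neurons.

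Dividing classes were then compared with the other class of the same lineage in each library. The dividing classes were defined by mitotic markers and none of the 10 genes, so the other classes can hold cycling cells too. In intermediate progenitor-like cells, cluster 19 has the replication genes Mcm6 and Mcm3 among its leading genes. Ratios near 1 there do not compare cycling with resting cells. Cdkn2c was higher in the dividing class in 5 of 5 libraries in each lineage. The ratio had a median of 6.55 in radial glia-like (range 4.97 to 7.75), 4.07 in intermediate progenitor-like (3.33 to 5.48) and 8.66 in oligodendrocyte precursor-like cells (7.07 to 10.6). The next highest median of any member was 3.55, for Cdkn1a in oligodendrocyte precursor-like cells, and rests on 2 to 13 UMIs per library and class. The D cyclins did not share a direction. The Ccnd2 ratio was 1.51 in radial glia-like (1.45 to 1.70), 1.03 in intermediate progenitor-like (0.849 to 1.15) and 0.752 in oligodendrocyte precursor-like cells (0.412 to 0.778). The Ccnd1 ratio was above 1 in 5 of 5 libraries of radial glia-like cells (median 1.45) and below 1 in 5 of 5 libraries of oligodendrocyte precursor-like cells (median 0.697). The ratios in radial glia-like cells pool clusters that differ in D cyclin levels, as given below. In intermediate progenitor-like cells the Ccnd1 ratio was above 1 in 5 of 5 libraries as well, with a median of 1.08. The Ccnd3 ratio had a median of 0.598 in radial glia-like cells, with 0 of 5 libraries above 1, of 1.58 in intermediate progenitor-like cells, with 5 of 5, and of 1.03 in oligodendrocyte precursor-like cells, with 3 of 5.

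Within the dividing intermediate progenitors, 2 clusters separated S phase from mitosis. Cluster 22 was led by the replication histone Hist1h1b (4109 CPM, against 305 CPM in cluster 30), and cluster 30 by mitotic genes such as Ube2c and Cenpf. Ccnd1 was at 171, 179 and 133 CPM (WT) and 151 and 150 CPM (KO) in cluster 22, and from 15.9 to 30.9 CPM over the 5 libraries in cluster 30. Every library was higher in cluster 22. Ccnd3 was likewise higher there (50.1 ± 5.35 against 15.5 ± 3.87 CPM, SD, n = 5). Cdkn1b was on the other side, with 162 ± 24.2 CPM in cluster 22 and 318 ± 75.6 CPM in cluster 30. Cdkn2c did not separate them (138 ± 21.1 and 129 ± 27.5 CPM). In the dividing oligodendrocyte precursors, cluster 44 (Hist1h1b at 3258 CPM) and cluster 48 (39.8 CPM) had the same Ccnd1 within their spread, at 487 ± 116 and 484 ± 92.8 CPM, and Cdkn1b ranged from 45.6 to 119 CPM and from 96.2 to 212 CPM, with overlap.

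Radial glia were not uniform either. Cluster 12, led by Gas1 and Hopx, had Ccnd1 at 282, 250 and 277 CPM (WT) and 294 and 304 CPM (KO), and cluster 4, led by Clu and Aldoc, had 97.3, 102 and 94.3 CPM (WT) and 79.6 and 121 CPM (KO). Each library had more Ccnd1 in cluster 12. Cdk6 lay on the same side (119 ± 16.1 against 43.7 ± 5.57 CPM, SD, n = 5) and Ccnd3 on the other (30.3 ± 7.30 against 81.0 ± 5.14 CPM), whereas Ccnd2 overlapped (605 ± 67.5 and 633 ± 103 CPM). Of the dividing radial glia, cluster 27, which also has Gas1 among its leading genes, had less Ccnd2 than cluster 25, at 526 ± 73.9 against 1289 ± 177 CPM. Ccnd1 in cluster 27 was at 192, 185 and 190 CPM (WT) and 212 and 219 CPM (KO), below cluster 12 in each library. That order is opposite to the pooled Ccnd1 ratio of radial glia-like cells given above. Mean Ccnd2 was also lower in cluster 27 than in cluster 12.

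The granule lineage was laid out from progenitors (clusters 19 and 16) through cells named excitatory (cluster 5) to Prox1-high granule neurons (clusters 1, 0 and 37). Eomes is the intermediate progenitor factor and Prox1 the granule neuron factor. Cluster 5 has Eomes among its leading genes too. Its intermediate progenitor markers scored 0.93 and its excitatory neuron markers 0.94, so it may hold progenitors. The levels of excitatory neuron-like cells given above include cluster 5. Cluster 19, led by Thrsp, Neurog2 and the replication genes Mcm6 and Mcm3, had 1624 ± 183 CPM of Ccnd2 (SD, n = 5). Cluster 16 had 714 ± 69.5, cluster 5 had 129 ± 10.1, cluster 1 had 101 ± 16.3 and cluster 0 had 83.2 ± 9.35. Ccnd1 was low already in cluster 16, at 14.5 ± 3.83 CPM against 205 ± 26.3 in cluster 19, and Cdk6 had means of 237, 106 and 28.7 CPM in clusters 19, 16 and 5. Cdk4 differed less along this order, with 688 ± 51.2 CPM in cluster 16, 492 ± 33.8 in cluster 5 and 371 ± 41.0 in cluster 0. Cdkn1b had its highest levels in between, at 136 ± 14.8 CPM in cluster 19, 223 ± 45.1 in cluster 16, 216 ± 30.2 in cluster 5 and 63.4 to 101 in cluster 0. Cluster 37, the granule neurons with Calb1, a marker of their maturity, had Ccnd1 again at 83.4, 76.7 and 45.8 CPM (WT) and 43.3 and 57.4 CPM (KO), above the 9.94 ± 4.24 CPM of cluster 0 in each library. The value of WT replicate 1 rests on 3 cells and 5 UMIs. An order of clusters is not a measured time course.

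**Figure D4:**
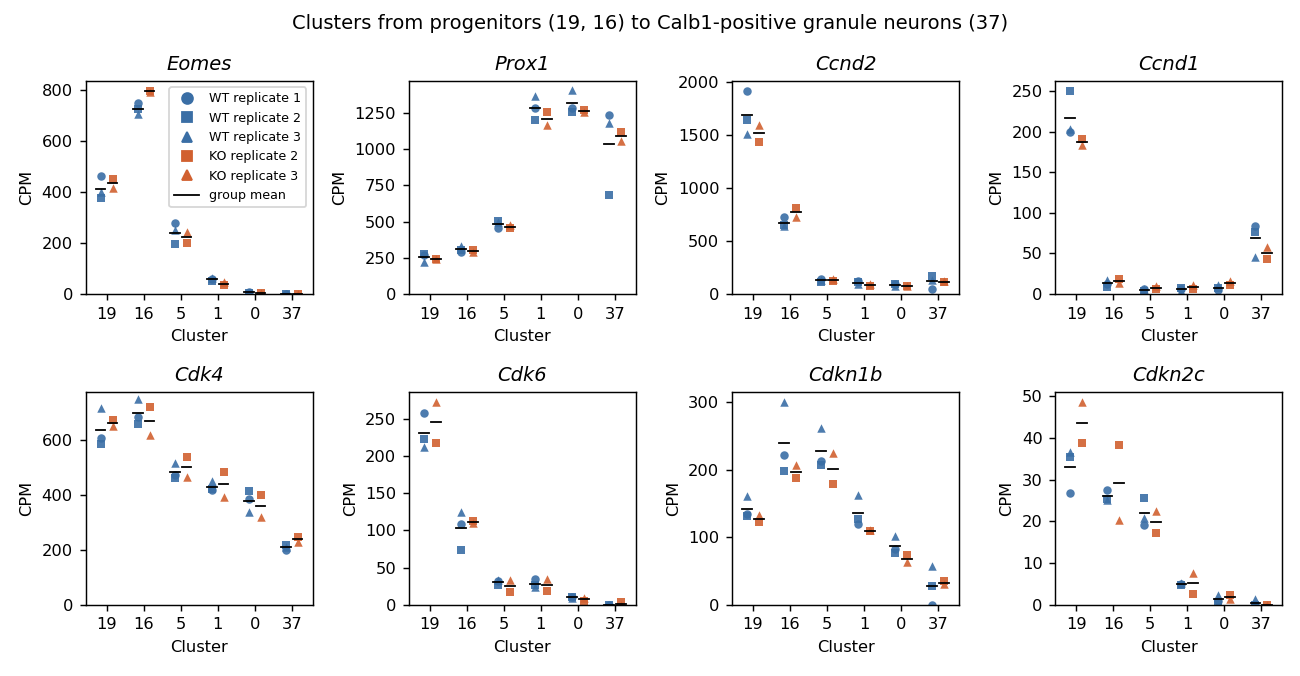
CPM of Eomes, Prox1, Ccnd2, Ccnd1, Cdk4, Cdk6, Cdkn1b and Cdkn2c in clusters 19, 16, 5, 1, 0 and 37, 1 point per library, WT blue and KO orange, with bars at the group means. Ccnd2 and Cdk6 are highest in cluster 19 and low in cluster 5, Cdkn1b is highest in clusters 16 and 5, and Ccnd1 is higher again in cluster 37.

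Over the 19 class means of log2(CPM + 1), Cdk6 and Cdkn2c were the pair of members most alike (Pearson r = 0.88), followed by Ccnd1 with Cdkn2c (0.77) and Ccnd1 with Cdk6 (0.73). Cdkn1c and Rb1 were most opposed (-0.67). Among 12079 genes, those most like Cdkn2c were Spidr (0.944), Hmgb2 (0.944) and Atad2 (0.943). Those most like Ccnd2 were Rftn2 (0.932), Peg12 (0.889) and Gm29521 (0.873). For Ccnd1 they were Snx1 (0.906), Slc35a4 (0.901) and Mcm3 (0.887), and for Ccnd3 Tagln2 (0.916), Cpq (0.915) and Svil (0.905). Genes like Cdk4 included Hnrnpc (0.915) and Snrpg (0.913), and Cdk6 was most like Inppl1 (0.925), Nedd1 (0.918) and Mcm3 (0.912). The closest to Cdkn1b were Rmst (0.861), Gm11266 (0.852) and Adamts19 (0.849), and the closest to Cdkn1a Slc35a3 (0.853), Mpp1 (0.848) and Gpr146 (0.836). Cdkn1c (Slc38a4 0.797, Adamts7 0.777, Armcx2 0.777) and Rb1 (Ppp1r9a 0.771, Agfg2 0.753, Tdrkh 0.748) had no closer gene. The class means share libraries and depth, so these values are descriptions.

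Genotype was tested in 17 classes, those with at least 20 cells in every library and microglia-like cells, which held 96, 50 and 18 cells in the WT and 39 and 11 cells in the KO libraries. No member passed an adjusted p of 0.05 in any class (0 of 161 tests of a member in a class by edgeR). At an unadjusted p under 0.05 there were 15 (9.32% of these tests, against 3.42% of all gene tests in the same classes), and DESeq2 called 1. Few genes of any kind were called. The share of genes called was 0% in 12 classes: CA1 and CA3 pyramidal-like, excitatory neuron-like, astrocyte-like, both oligodendrocyte precursor-like classes, both radial glia-like classes, intermediate progenitor-like, endothelial-like, ependymal-like and fibroblast-like cells. It was 0.0089% in Cajal-Retzius-like cells, 0.0164% in dentate granule-like, 0.0096% in dividing intermediate progenitor-like, 0.00888% in inhibitory neuron-like and 0.0294% in microglia-like cells. The median log2 fold change of the members in a class ran from -0.232 in inhibitory neuron-like to 0.092 in endothelial-like cells, beside medians of all genes from -0.016 to 0.012. In sums over a class, a change in every cell and a change in the mix of its cells cannot be told apart.

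Ccnd2 in inhibitory neuron-like cells came nearest to the threshold. It was at 92.9, 56.4 and 51.1 CPM in the WT and at 26.1 and 26.0 CPM in the KO libraries, with both KO libraries below every WT library (-1.32 in log2 units with an SE of 0.221, adjusted p = 0.0614 by edgeR). The class joins cluster 8, led by Sst, Npy and Lhx6 of medial ganglionic eminence interneurons, and cluster 15, led by Adarb2, Cxcl14 and Npas1 of caudal ganglionic eminence interneurons. Ccnd2 was at 7.40 ± 2.51 CPM in cluster 8 and at 125 ± 72.8 CPM in cluster 15 (SD, n = 5). Cluster 15 was 46.6%, 55.5% and 47.0% of the class in the WT and 38.8% and 38.3% in the KO libraries. When the clusters were tested alone, a fit added after the data were seen, Ccnd2 was lower in KO in cluster 15, at 64.7 and 66.1 CPM against 244, 128 and 122 CPM (-1.31, SE 0.228, adjusted p = 0.00978 by edgeR), and 0.0444% of genes were called there. In cluster 8 it was not called (0.61, SE 0.403, adjusted p = 0.928), and 0% of genes were. The difference between the clusters was not tested. The cluster 15 call depended on single libraries: without WT replicate 1 the adjusted p was 0.287 (log2 fold change -0.90), without KO replicate 2 it was 0.0668 (-1.30), without KO replicate 3 it was 0.149 (-1.32), and without WT replicate 2 or 3 it was 0.0307 (-1.40) and 0.00394 (-1.59).

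The 4 genes called in cluster 15 were Ccnd2, Meis2 (-1.46), Foxp2 (-2.82) and Sst (1.93). Meis2 and Foxp2 encode transcription factors, and Sst is a marker of cluster 8. Cells with a Meis2 UMI were 31.8%, 24.6% and 23.0% of cluster 15 in the WT and 10.4% in each KO library. Their median depth was 4229, 4352 and 4754 UMIs in the WT and 9441 and 8537 UMIs in the KO libraries. In these cells Ccnd2 was at 431, 171 and 357 CPM (WT) and at 78.3 and 209 CPM (KO), and the genotypes overlapped. The values rest on 35, 15 and 66 cells (WT) and 14 and 21 cells (KO). The overlap came from WT replicate 2, with 16 Ccnd2 UMIs. In the cells without a Meis2 UMI Ccnd2 was at 165, 113 and 55.5 CPM (WT) and at 62.3 and 45.9 CPM (KO), and the genotypes overlapped again. The part of Meis2-positive cells in the Ccnd2 result was not tested.

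**Figure D5:**
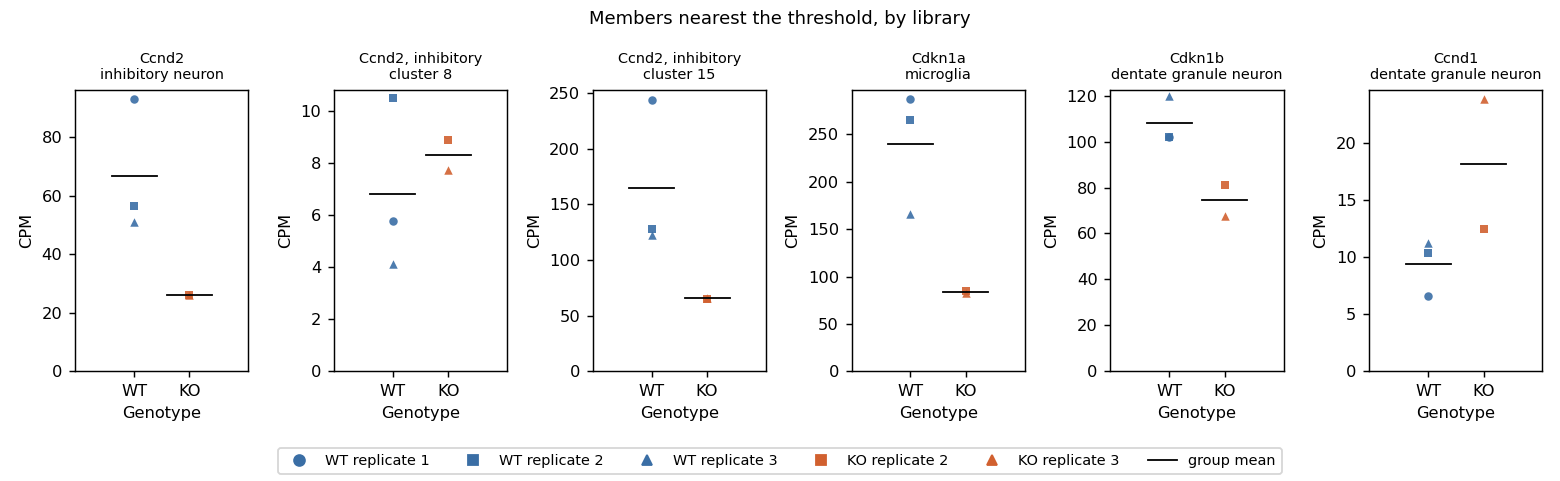
CPM by genotype for the members nearest the threshold, 1 point per library and bars at the group means, each axis starting at 0. The libraries of the genotypes do not overlap in any panel except Ccnd2 in inhibitory cluster 8. Only Ccnd2 in cluster 15 was called (adjusted p = 0.00978 by edgeR), in a fit added after the data were seen. How many of all genes separate in this way was not counted.

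Cdkn1a in microglia-like cells was at 287, 265 and 166 CPM in the WT and at 84.4 and 82.6 CPM in the KO libraries, from 297, 181 and 24 against 47 and 8 UMIs. The genotypes did not overlap, with a log2 difference of -1.52 and an SE of 0.340, far from the threshold after adjustment (adjusted p = 0.995 by edgeR). A Cdkn1a UMI was found in 49.0%, 62.0% and 44.4% of WT and in 46.2% and 27.3% of KO microglia-like cells, at median depths of 10070, 13184 and 6633 against 13343 and 8382 UMIs. The exact binomial (Clopper-Pearson) 95% interval of the last share is 6.02% to 61.0%, which covers counting error only. In excitatory neuron-like cells, with 2.21 CPM of Cdkn1a, the shares were 1.38% to 2.25%. No gene of the p53 target list passed the threshold either, and Bbc3 (-1.92, adjusted p = 0.999), Btg2 (-0.51) and Mdm2 (-0.60) had the smallest p of the list. The summed p53 targets were at 1161, 1001 and 904 CPM (WT) and at 774 and 774 CPM (KO). Btg2 is also on the list of immediate early genes, so the lists are not fully separate. Of the immediate early genes, which tissue dissociation is known to induce, 15 of 16 had a negative log2 fold change with a median of -0.499. Fosb (-1.93), Fos (-0.81) and Dusp1 (-1.04) were nearest, and none was called. The summed list overlapped between genotypes, at 7301, 4713 and 6313 CPM (WT) and 3435 and 6112 CPM (KO). Its part in the Cdkn1a value was not tested. KO replicate 3, with 11 cells, stood apart in dividing genes, whose sum was 1160, 966 and 1166 CPM (WT) and 1258 and 41.3 CPM (KO), and in S phase genes, at 718, 581 and 1283 CPM (WT) and 878 and 258 CPM (KO). Without KO replicate 3 the Cdkn1a difference was -1.52 (adjusted p = 0.145 by edgeR, 0.145 to 0.999 with a library left out).

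In dentate granule-like cells Cdkn1b was at 102, 102 and 120 CPM in the WT and at 81.3 and 67.6 CPM in the KO libraries (-0.53, SE 0.129, adjusted p = 0.537 by edgeR). Ccnd1 was at 6.63, 10.4 and 11.2 CPM in the WT and at 12.5 and 23.8 CPM in the KO libraries (0.96, SE 0.283, adjusted p = 0.696). The makeup of the class also differed: cluster 37, where Ccnd1 is high and Cdkn1b low, was 0.450%, 2.27% and 4.90% of the class in the WT and 5.32% and 13.1% in the KO libraries. Cluster 1 was 57.8%, 56.7% and 41.1% in the WT and 40.9% and 30.8% in the KO libraries. Within cluster 0 the Cdkn1b difference was -0.35 and the Ccnd1 difference 0.74, and within cluster 1 they were -0.30 and 0.62. None of these was called, with 0% and 0.00957% of genes called in the 2 clusters. Cdk6 was at 11.0, 8.26 and 7.82 CPM (WT) and 4.81 and 5.21 CPM (KO) in excitatory neuron-like cells (-0.83, SE 0.220, adjusted p = 0.999 by edgeR). In this class cluster 5, with 28.7 CPM of Cdk6, was 24.2%, 22.7% and 18.6% of the cells in the WT and 17.4% and 14.9% in the KO libraries. The Cdk6 difference was -0.36 (SE 0.258) within cluster 5 and -0.07 (SE 0.407) within cluster 6. The part of the makeup in these Cdkn1b, Ccnd1 and Cdk6 differences was not tested. The other 10 pairs with an unadjusted p under 0.05 were Cdk6 in CA1 pyramidal-like (-2.33, from 1 to 18 UMIs per library) and dentate granule-like cells (-0.66, but -0.42 within cluster 0 and -0.07 within cluster 1), Ccnd3 (0.47), Ccnd1 (0.61) and Cdkn1a (-0.97) in CA3 pyramidal-like cells, Cdkn1b (-0.77) and Rb1 (-1.33) in fibroblast-like cells, Cdkn1b in excitatory neuron-like cells (-0.25), and Cdkn1a (-0.97) and Ccnd1 (-0.33) in dividing radial glia-like cells. The Rb1 value in fibroblast-like cells rests on 19, 11 and 20 UMIs in the WT and on 6 and 1 in the KO libraries. None of the 10 pairs was called by edgeR or DESeq2.

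Cdkn1b had a negative log2 fold change in 17 of 17 classes, with a median of -0.249. Without WT replicate 3, the library in which it was highest, this was 12 of 17 with a median of -0.076. No other member had 1 sign throughout: Ccnd2 was lower in KO in 13 of 17 classes (median -0.100), Rb1 in 14 of 17 (-0.097), Ccnd1 in 10 of 17 (-0.082), Ccnd3 in 6 of 17 (0.022) and Cdk4 in 7 of 17 (0.050). Cdk6 was lower in 6 of 15 classes (0.057), Cdkn1a in 9 of 15 (-0.121), Cdkn1c in 5 of 16 (0.090) and Cdkn2c in 5 of 13 (0.096). Cdk4 was lower in 12 of 17 classes without KO replicate 2 and in 0 of 17 without KO replicate 3. Classes of the same library are not independent.

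The balance within families was also compared between genotypes, over 34 shares with a two-sided exact permutation test whose smallest possible p is 0.1. That value was reached in 7, with an adjusted p of 0.486. Among these, the Ccnd1 share of D cyclins was 9.03% ± 2.34 (SD, n = 3) in WT against 14.2% ± 0.392 (SD, n = 2) in KO inhibitory neuron-like cells, where Ccnd1 itself was at 7.57 CPM in WT and 5.66 CPM in KO beside the Ccnd2 values above, and 5.16%, 7.91% and 10.0% (WT) against 11.1% and 18.8% (KO) in dentate granule-like cells. In oligodendrocyte precursor-like cells it was 62.6% ± 5.45 against 60.2% ± 5.42 (exact p = 0.7). The Cdkn1c share of its family was 2.58% ± 2.24 against 8.77% ± 0.620 in microglia-like cells, from 0 to 14 Cdkn1c UMIs per library.

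No gene of the wider pathway was called either. The 6 lists covered the partners of the D cyclins from cyclin E to E2F (22 genes), other CDK inhibitors (4), regulators upstream of D cyclins (14), p53 targets (15), immediate early genes (16) and S phase genes (12). Of 1164 pairs of a list gene and a class, none was called by edgeR or DESeq2, and 72 (6.19%) had an unadjusted p under 0.05, against the same 3.42% of all gene tests. Of the 102 medians of a list in a class, 99 lay between -0.5 and 0.5. Outside lay the immediate early genes in dividing oligodendrocyte precursor-like cells (0.704, 10 of 10 positive). The other CDK inhibitors, with 2 genes tested, did so in CA3 pyramidal-like (0.573) and intermediate progenitor-like cells (-0.602). S phase genes were positive for 11 of 11 in fibroblast-like and 11 of 12 in radial glia-like cells. They were negative for 10 of 11 in endothelial-like and 10 of 12 in oligodendrocyte precursor-like cells. In inhibitory neuron-like cells, where Ccnd2 was nearest the threshold, the G1 to S partners had 11 of 14 negative values (median -0.100), with Mnat1 (-0.24), Cks1b (-0.22) and Cdc25a (-0.25) nearest. Of the upstream regulators these were Mycn (-0.37), Btg1 (-0.22) and Btg2 (0.25), of the p53 targets Trp53inp1 (-0.92), Bax (0.24) and Ccng1 (-0.53), and of the S phase genes Gins2 (-1.05), Mcm5 (0.75) and Rrm2 (-0.34). Of the immediate early genes, 13 of 14 had positive values there (median 0.320), with Klf2 (1.35), Junb (0.77) and Fosb (0.90) nearest. The only other inhibitor tested there, Cdkn2d, was at 0.10. In microglia-like cells the G1 to S partners had a median of 0.071 and the S phase genes 0.066, with KO replicate 3 low in the latter as given above.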

How the data were processed

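Single cells of postnatal day 1 hippocampus were counted by the authors with Cell Ranger 6.1 on mm10, per the submitters' processing notes, and the deposited matrices hold raw UMI counts per gene and barcode. Cells needed 500 genes, 1000 UMIs and at most 15% mitochondrial counts. The 2384 barcodes with the highest Scrublet scores (0.8% per 1000 barcodes in a library) were removed as doublets, because the automatic threshold marked under 0.5% in 3 libraries. Cells were clustered with scanpy 1.11.5 (Leiden resolution 2) without the 10 genes and named from marker lists. Counts were summed per library and class, scaled to CPM, and tested with edgeR 4.0.16 (R 4.3.3; filterByExpr, TMM, quasi-likelihood test of KO against WT, Benjamini-Hochberg adjustment over all genes tested, threshold 0.05), after a check on simulated data. Mural-like and border macrophage-like cells, under 20 cells in a library, were not tested; microglia-like cells were, since they carry the deleted gene. The genes named beyond the 10 were, per list, the 3 with the smallest p, and the 3 with the highest correlation over classes. The members and lists were chosen with earlier results of these data known. The tests within clusters and the E-box and p53 motifs were added after the data were seen. Promoter sequences are from RefSeq (GRCm38.p6), and gene positions from GENCODE M21 (mm10). Some results are not reported here. Alternatives were DESeq2 1.42.0, other scaling, filters, clustering and left-out libraries.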

Additional observations from a re-analysis of the deposited data

How the results depend on the processing

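With 3 against 2 libraries the precision is limited by their number, and microglia-like cells also by depth, with 8 Cdkn1a UMIs in the smallest library. Against 0 members called in each class, the counts became 1 in inhibitory neuron-like cells (Ccnd2) with DESeq2, no filter on low counts, the number of male pups as covariate, Leiden resolution 3 or cluster 15 alone, and 0 to 1 when a library was left out; Ccnd2 there had an adjusted p of 0.380 without WT replicate 1. They became 2 in dentate granule-like cells (Ccnd1 and Cdkn1b) with no filter, 1 in microglia-like cells (Cdkn1a) with no filter or with cells assigned one by one from markers, and 0 to 1 in astrocyte-like cells with a library left out (Cdkn1c without WT replicate 2). Genes of the pathway lists called over all classes went from 0 to 12 with no filter, 4 with the male covariate, 1 with a mitochondrial limit of 5%, and 0 to 3 with a library left out. All genes called over the classes numbered 7, against 18 with DESeq2, 7 with RLE size factors, 555 with no filter, 64 with the male covariate, 13 with the 5% limit (14 classes fitted), 9 with doublets kept, 5 with cells assigned one by one (13 classes fitted), 9 at resolution 3 and 2 to 52 with a library left out.

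Across genes in 3 classes, KO replicate 2 deviated together with WT replicate 2 (r = 0.52 to 0.65) and KO replicate 3 with WT replicate 3 (0.35 to 0.49), but KO replicate 3 also with WT replicate 1 (0.22 to 0.35). With 2 KO libraries their deviations mirror each other, only 2 pairs exist, and the labels do not tie the numbers. By their descriptions both libraries numbered 2 came from 2 male pups, and each of the others from 1 male and 1 female pup. A shared number 2 and a shared pup sex therefore cannot be told apart. With the replicate block, members called were 1 in dividing radial glia-like, 2 in dentate granule-like, 1 in inhibitory neuron-like and 1 in microglia-like cells, list genes called were 9, and all genes called were 715.

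The sign reversed for Ccnd1 in CA3 pyramidal-like cells (-0.44 with the 5% limit), Ccnd2 in inhibitory neuron-like cells (0.61 in cluster 8 alone) and Cdkn1a in CA3 pyramidal-like cells (0.09 with cells assigned one by one). Levels moved for Ccnd1 in oligodendrocyte precursor-like cells (561 CPM at resolution 3) and Cdkn2c in dividing radial glia-like cells (129 CPM with cells assigned one by one). The Ccnd1 share moved to 10.8% in intermediate progenitor-like cells (5% limit), 50.7% in oligodendrocyte precursor-like cells (resolution 3) and 13.7% in radial glia-like cells (one by one), and the Cdkn1c share in radial glia-like cells to 6.49% (doublets kept) and 17.5% (one by one). Shares at the smallest exact p numbered 2 with the 5% limit and 4 with cells assigned one by one, of 26 computed in each. The causes were not tested. Other levels (77) and shares (80) moved by less than the spread between libraries.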
